A study of Mus musculus with 7 samples.

Results

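A set of 10 heat-shock genes was followed in mouse Langerhans cells after irradiation: the cytosolic chaperones Hspa1a, Hspa8, Hsp90aa1, Hsp90ab1, Hsph1, Dnajb1 and Hspb1, the mitochondrial pair Hspd1 and Hspe1, and Hsf1, their shared transcription factor. They were chosen by gene symbol, and all 10 were found among the 21755 symbols of the deposited annotation. The study measured RNA on 7 arrays of Langerhans cells, which are dendritic cells that live in the epidermis, sorted from adult wild-type C57:Bl6 mice. Control cells came from naive mice (4 arrays), and irradiated cells came from mice that had received 12 Gy of ionizing radiation (3 arrays). Each array held sorted cells pooled to reach a set cell number. The labels give no sex, no exact age and no time between irradiation and sorting. Separate mice per array are not stated either, so the p-values rest on a spread between samples that may be only technical.

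Heat-shock proteins are chaperones: they bind unfolded proteins, hold them soluble and help them fold again. HSP70 proteins bind short exposed stretches in a cycle driven by ATP, which J-domain proteins start and exchange factors reset. HSP90 proteins act later, on nearly folded kinases and receptors, and the chaperonin of HSP60 and HSP10 folds proteins inside mitochondria. In stressed cells HSF1 forms trimers and binds repeats of the unit GAA and its complement TTC in promoters, called heat-shock elements. In dendritic cells, chaperones are also known for carrying antigen peptides.

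Promoter sequences of the members were available for 6 of the 10 genes (RefSeq, GRCm38.p6, from 250 bases before to 50 after the start). An element of 3 alternating units, GAANNTTCNNGAA or TTCNNGAANNTTC (each the reverse complement of the other, so both strands were searched, overlaps counted), was found for Hsph1, Hspe1 and 1 of the Hspd1 windows. The element occurs in 0.603% of all 32851 windows of that length. Windows of Hspa8, Hsp90aa1, Hsp90ab1 and Hsf1 were not used here. Hspd1 and Hspe1 are divergent neighbours, and their windows hold the same 18 bases of chromosome 1 (55088059-55088076), read on opposite strands. Hspa1a and Hspb1 held elements of 2 units (GAANNTTC or TTCNNGAA) and none of 3. Only exact GAA and TTC units were searched, so elements with imperfect units would be missed. A 2-unit match, alone or within a 3-unit one, is in 15.1% of windows. Neither of the 2 Dnajb1 windows (chromosome 8, 83607925-83608224 and 83608298-83608597) held a match of either kind. The bases between these windows were not searched, so an element there would be missed. These letters describe the windows and do not show binding by HSF1. A window each of Hspe1, Hsph1 and Hspa1a is shown, because these carry the shared element of the mitochondrial pair, that of an HSP70 helper, and the promoter of the inducible HSP70. Capitals mark 3-unit matches in Hspe1 and Hsph1, and the 2-unit match in Hspa1a. Hsph1 held 3 matches of 2 units in all, of which 1 lies before the start, outside the capitals, and is not marked.
Hspe1, chr1:55087898-55088197, plus strand: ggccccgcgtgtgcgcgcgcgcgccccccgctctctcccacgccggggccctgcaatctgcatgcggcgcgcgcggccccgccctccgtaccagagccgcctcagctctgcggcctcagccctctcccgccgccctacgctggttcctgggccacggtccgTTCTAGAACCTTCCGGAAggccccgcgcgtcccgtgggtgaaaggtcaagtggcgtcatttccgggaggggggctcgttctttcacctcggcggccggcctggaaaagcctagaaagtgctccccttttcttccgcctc
Hsph1, chr5:149636266-149636565, minus strand: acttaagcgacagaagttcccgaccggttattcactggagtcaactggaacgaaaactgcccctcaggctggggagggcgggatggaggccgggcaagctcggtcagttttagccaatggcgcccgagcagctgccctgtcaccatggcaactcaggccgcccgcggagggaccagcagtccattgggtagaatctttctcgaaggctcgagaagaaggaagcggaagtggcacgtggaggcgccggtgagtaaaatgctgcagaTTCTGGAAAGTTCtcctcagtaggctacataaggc
Hspa1a, chr17:34972107-34972406, minus strand: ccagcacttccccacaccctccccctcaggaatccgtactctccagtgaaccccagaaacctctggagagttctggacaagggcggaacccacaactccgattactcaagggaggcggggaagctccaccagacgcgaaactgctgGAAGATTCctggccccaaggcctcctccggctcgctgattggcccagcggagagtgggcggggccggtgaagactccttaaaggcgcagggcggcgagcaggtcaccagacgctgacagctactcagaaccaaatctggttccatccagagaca
The matches lie from -89 to -72 in Hspe1, from 15 to 27 in Hsph1 and from -104 to -97 in Hspa1a, counting the start as 0. The Hspa1a window equals that of its neighbour Hspa1b at 296 of 300 positions. The deposited table has no row under the symbol Hspa1b. Both genes are near-identical in sequence, so a signal named Hspa1a may include Hspa1b transcripts and its level is uncertain to that extent.

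The values are log2 of the deposited intensities, 1 probe set per gene. The array labelled irradiated replicate 1 (irradiated 1) stood apart. Its correlation across the 13053 tested genes was at most 0.728 with any other array, while the other 6 arrays correlated at 0.858 or more. Langerin (Cd207), which defines Langerhans cells, was at 5.64 there against 8.85 to 11.5 in controls, and H2-Aa was at 6.52 against 12.98 to 13.1. The summed intensity of 9 Langerhans cell markers was 1965 in that array, 32994 to 42725 in controls and 46693 to 47867 in irradiated 2 and 3. Conversely, the sum of 8 fibroblast markers was 23257 against 1668 to 7663 in controls, and that of 6 erythroid and platelet markers 20963 against 591 to 2035. No marker was at 0 on any array. The RNA of irradiated 1 thus goes against its Langerhans cell label, and each result is given with and without it. Xist was at 10.9 to 11.7 in controls and 5.31 to 5.93 in irradiated samples, and Ddx3y, a Y-linked gene, at 4.35 to 5.45 and 6.67 to 8.71, so sex and irradiation cannot be told apart. In such bulk samples, fewer cells of a type and less RNA per cell cannot be told apart either.

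None of the 10 genes changed detectably between irradiated and control cells, with or without irradiated 1. With all 7 arrays, every member had a lower mean in irradiated cells, with log2 fold changes from -0.84 to -0.08. A lower mean was found in 55.0% of tested genes. Without irradiated 1, 7 of the 10 had a higher mean and 3 a lower one, with log2 fold changes from -0.36 to 0.48. In that comparison 43.6% of tested genes had a higher mean. In the limma fit over all genes, 0 of 10 members passed an adjusted p of 0.05 in either comparison, against 1.68% of tested genes with all arrays (0.115% higher and 1.56% lower) and 4.63% without irradiated 1 (1.58% higher and 3.06% lower). With all arrays, 0 of 10 members had every irradiated array above every control, where 3.46% of tested genes did, and 0 of 10 had every one below, where 15.3% did. At an unadjusted p under 0.05 the count was also 0 of 10 in both, where 19.7% and 21.7% of tested genes fell below it.

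**Figure D1:**
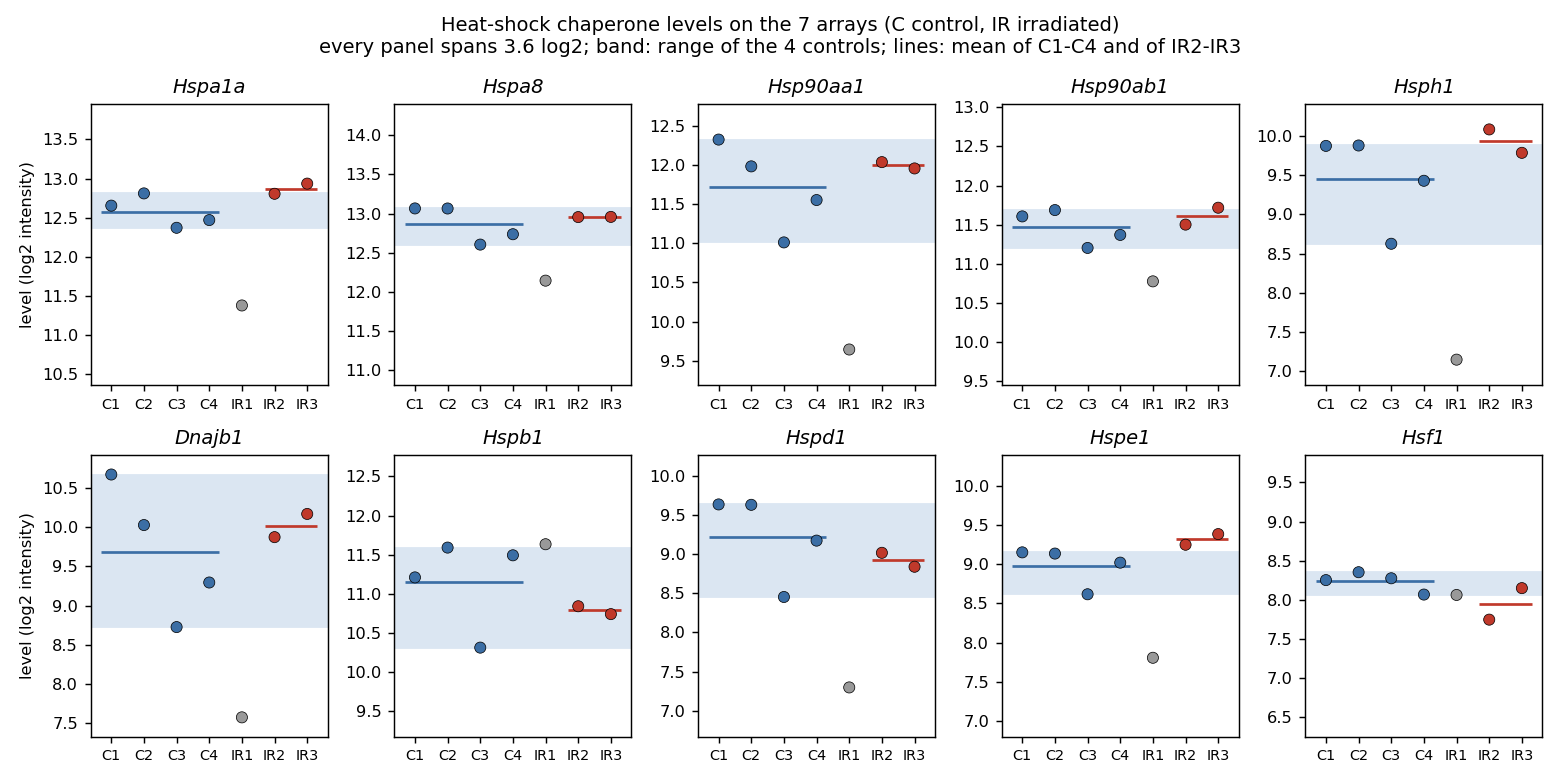
Level of each gene (log2 intensity, vertical axis) on each of the 7 arrays (horizontal axis), with the 4 controls in blue, irradiated 1 in grey and irradiated 2 and 3 in red. The band is the range of the 4 controls and the lines are the means of the controls and of irradiated 2 and 3; irradiated 1 lies below the band in 9 of the 10 panels, in Hsf1 by only 0.0051 log2.

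Hsf1, the regulator, had the narrowest spread. Its controls were at 8.25, 8.35, 8.27 and 8.07, and the irradiated arrays at 8.06, 7.75 and 8.15. Irradiated 2 was the lowest array and the groups overlapped. The log2 fold change was -0.25 (SE 0.18, adjusted p = 0.470, n = 4 and 3), and -0.29 (SE 0.18, adjusted p = 0.430, n = 4 and 2) without irradiated 1. Its controls spanned 0.29 log2, the smallest control range among the 10 genes, and irradiated 1 was only 0.17 log2 below the control mean.

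Hspa1a encodes the stress-inducible HSP70. Its controls were at 12.65, 12.81, 12.37 and 12.47, and the irradiated arrays at 11.38, 12.81 and 12.94. The signal was thus high in cells of naive mice as measured after sorting, and irradiated 3 was the highest array and irradiated 1 the lowest. The log2 fold change was -0.20 (95% confidence interval -1.04 to 0.64, adjusted p = 0.769). Without irradiated 1 it was 0.29 (interval -0.05 to 0.64, adjusted p = 0.308), a 1.23-fold difference. That comparison gave the lowest unadjusted p of any member, 0.0842.

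Hspa8 encodes the constitutive HSP70, which folds new proteins in unstressed cells. Its controls were at 13.07, 13.06, 12.60 and 12.74, and the irradiated arrays at 12.14, 12.95 and 12.96. Irradiated 2 and 3 differed by only 0.0024 log2 and lay inside the control range. The log2 fold change was -0.18 (SE 0.24, adjusted p = 0.679), and 0.089 (interval -0.28 to 0.46, adjusted p = 0.819) without irradiated 1.

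The helpers of HSP70 varied most between arrays. Dnajb1, the J-domain protein HSP40 that delivers clients to HSP70, was at 10.68, 10.03, 8.73 and 9.30 in controls and at 7.57, 9.87 and 10.17 in irradiated arrays. Its controls alone spanned 1.95 log2, a 3.86-fold range that held both irradiated 2 and 3. The log2 fold change was -0.48 (SE 0.70, adjusted p = 0.721), and 0.34 (SE 0.50, interval -0.84 to 1.53, adjusted p = 0.776) without irradiated 1. Hsph1, the HSP110 exchange factor that resets HSP70, was at 9.88, 9.88, 8.63 and 9.43 in controls and at 7.15, 10.09 and 9.79 in irradiated arrays. Irradiated 2 lay above every control and irradiated 3 did not. Its log2 fold change of 0.48 without irradiated 1 (interval -0.39 to 1.36, adjusted p = 0.526) was the highest of the 10 genes; with all arrays it was -0.45 (SE 0.71, adjusted p = 0.738).

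The cytosolic HSP90 genes differed in spread. Hsp90aa1, the stress-inducible form, was at 12.32, 11.98, 11.01 and 11.55 in controls and at 9.64, 12.04 and 11.96 in irradiated arrays. Irradiated 1 was 2.07 log2 below the control mean, and the other irradiated arrays lay inside the control range of 1.31 log2. Hsp90ab1, the constitutive form, was at 11.61, 11.69, 11.20 and 11.37 in controls and at 10.78, 11.50 and 11.72 in irradiated arrays. Its control range was 0.48 log2, and irradiated 1 was 0.69 below the control mean. The log2 fold changes were -0.51 for Hsp90aa1 (SE 0.61, adjusted p = 0.656) and -0.13 for Hsp90ab1 (SE 0.26, adjusted p = 0.790). Without irradiated 1 they were 0.28 (interval -0.51 to 1.07, adjusted p = 0.714) and 0.14 (interval -0.29 to 0.57, adjusted p = 0.730).

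Hspb1, the small heat-shock protein HSP27 that holds unfolded proteins without ATP and is abundant in keratinocytes, had another pattern. It was at 11.21, 11.59, 10.31 and 11.49 in controls and at 11.63, 10.84 and 10.74 in irradiated arrays. Here irradiated 1 was the highest array and control 3 the lowest, and irradiated 2 and 3 lay inside the control range. The log2 fold change was -0.079 (SE 0.37, adjusted p = 0.918), and -0.36 (interval -1.19 to 0.47, adjusted p = 0.634) without irradiated 1. Keratin 14 (Krt14), a basal keratinocyte gene, was at 7.69, 10.80, 9.06 and 11.38 in controls and at 11.65, 10.84 and 10.32 in irradiated arrays. The summed intensity of 16 keratinocyte markers was 4046, 8275, 3201 and 13327 in controls 1 to 4. In irradiated 1 to 3 it was 22130, 8689 and 6826. Irradiated 1 had both the highest sum and the highest Hspb1 level, and control 3 the lowest of both. Control 1 had a lower sum than irradiated 2 and 3 but a higher Hspb1 level. The part of keratinocyte RNA in the Hspb1 values was not tested.

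The mitochondrial pair shares its promoter region, shown above with its 2 overlapping 3-unit matches, and both encode parts of 1 folding machine. Hspd1, the HSP60 barrel, was at 9.64, 9.63, 8.45 and 9.17 in controls and at 7.30, 9.02 and 8.84 in irradiated arrays. Both irradiated 2 and 3 lay inside the control range. Hspe1, the HSP10 lid, was at 9.15, 9.14, 8.62 and 9.02 in controls and at 7.81, 9.25 and 9.39 in irradiated arrays. Irradiated 2 and 3 lay above every control in Hspe1 alone among the 10 genes, where 10.2% of tested genes did so, and no member had both below every control, where 20.3% did. The log2 fold change of Hspd1 was -0.84 (SE 0.48, interval -1.96 to 0.28, adjusted p = 0.377), the farthest below 0 of the 10, and -0.29 (SE 0.35, adjusted p = 0.711) without irradiated 1. For Hspe1 it was -0.17 (SE 0.40, adjusted p = 0.83), and 0.34 (interval -0.17 to 0.84, adjusted p = 0.429) without irradiated 1. The sign of the pair's difference without irradiated 1 was thus opposite, but neither passed and the difference between the genes was not tested.

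**Figure D2:**
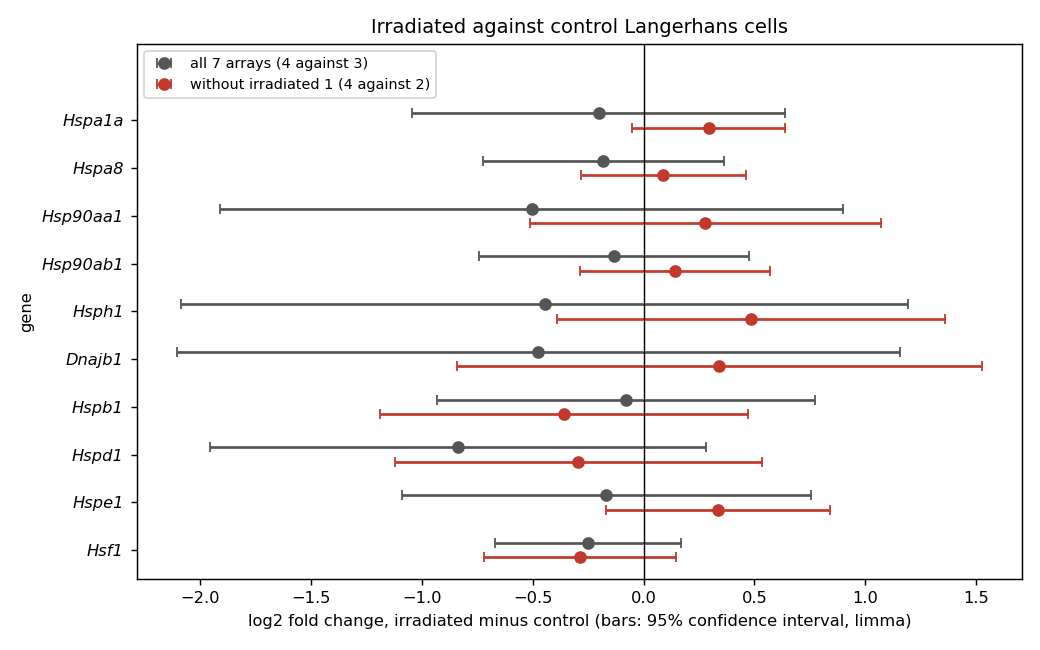
Log2 fold change of each gene, irradiated minus control (horizontal axis), with 95% confidence intervals from limma; grey is all 7 arrays and red is without irradiated 1. All 20 intervals include 0, and the mean of 7 genes moves from below to above 0 when irradiated 1 is left out.

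Intervals without irradiated 1 show what these arrays can bound. For Hspa8 and Hsp90ab1 they reached from -0.28 to 0.46 and from -0.29 to 0.57 log2. For Dnajb1 and Hsph1 they still included rises of 1.53 and 1.36 log2. Differences of that size in these inducible genes lay within the intervals that these arrays give, and the lack of a call does not show that the levels were equal.

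Most members shared their low arrays. Control 3 was the lowest of the 4 controls in 9 of 10 genes, all except Hsf1, where 23.7% of tested genes had their lowest control there. Irradiated 1 was the lowest of all 7 arrays in 8 of 10, all except Hspb1 and Hsf1, against 29% of tested genes. The median over the 10 genes was 0.18, 0.25, -0.54 and -0.10 log2 from the control mean in controls 1 to 4. In irradiated 1 to 3 it was -1.19, 0.14 and 0.24. The median over all tested genes was -0.0837 in irradiated 1, the array where the members were lowest. The range of the 4 controls exceeded 1 log2 in 5 members, Hsp90aa1, Hsph1, Dnajb1, Hspb1 and Hspd1, as it did in 12.5% of tested genes. The median control range was 0.86 log2 over the members and 0.46 over all tested genes.

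**Figure D3:**
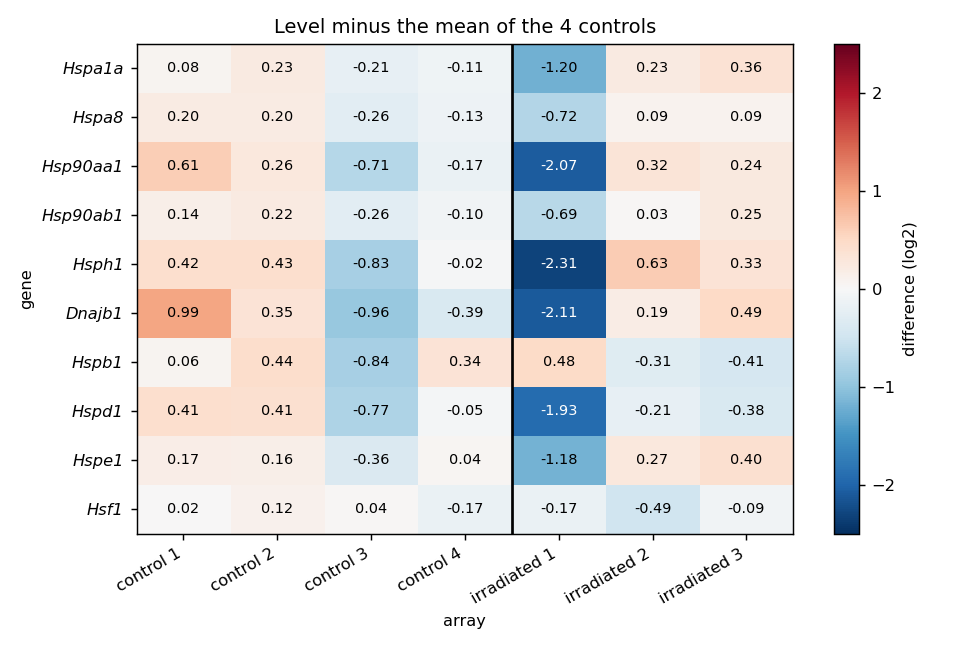
Level of each gene minus the mean of its 4 controls (log2, colour and printed number), by array. Control 3 is below the control mean in 9 of 10 rows, irradiated 1 is between -0.69 and -2.31 in the 8 rows other than Hspb1 and Hsf1, and irradiated 2 and 3 resemble controls 1 and 2 in sign in the HSP70, HSP90 and co-chaperone rows.

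Cell type markers also differed among the controls. Cd207 was at 11.49 and 10.96 in controls 1 and 2, 8.85 and 8.91 in controls 3 and 4, and 12.35 and 11.86 in irradiated 2 and 3. The sum of 7 macrophage and monocyte markers was 3484 and 8796 in controls 1 and 2 and 15986 and 13142 in controls 3 and 4, with 2368, 9005 and 9398 in irradiated 1 to 3. Other marker sums in irradiated 1 were 1229 for 6 endothelial markers (401 to 443 in controls) and 1311 for 6 mast cell markers (735 to 974 in controls, 571 and 625 in irradiated 2 and 3). The sum of 7 T cell markers was 1043, 848 and 1929 in irradiated 1 to 3, against 596 to 862 in controls. Those of 7 dermal dendritic cell markers (1956 to 5473 in controls, 1754 to 2714 in irradiated arrays) and 5 melanocyte markers (397 to 513 and 467 to 530) overlapped between groups. The part of these cells in the chaperone values was not tested. Labels of controls 1 and 4 cite an earlier record; the chaperone medians of all 4 controls are given above.

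A subset of 6 genes had 2 or 3 probe sets and 4 had 1, 20 in all for the 10 genes, and 0 of the 19 bright enough to test passed in either comparison. The 3 probe sets of Hspa8 gave log2 fold changes of -0.18, -0.21 and -0.18, and those of Hsp90aa1 -0.51, -0.50 and -0.33. For Hspe1 they were -0.17 and -0.18, and for Hspd1 -0.84 and -0.81. Those of Hspa1a were -0.20, -0.37 and -0.48. Without irradiated 1 the probe sets of Hsp90aa1 gave 0.28, 0.25 and 0.48, those of Hspd1 -0.29 and -0.17, and those of Hspa8 0.089, 0.056 and 0.13. For Hspa1a the probe sets disagreed: probe set 10450367 and probe set 10450369 gave 0.29 and 0.22 without irradiated 1, but probe set 10444589 gave -0.059. The last had controls at 12.01, 11.25, 10.84 and 10.60 and irradiated arrays at 9.86, 10.59 and 11.64, a control range wider than that of the probe set used. Hspb1 probe set 10404872 was dim, with a mean of 4.60 log2 against 11.12 and 11.02 for the others. Genes such as Hspa8, Hsp90aa1, Hspd1 and Hspe1 have many processed pseudogene copies, so which locus a probe set reads is uncertain.

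**Figure D4:**
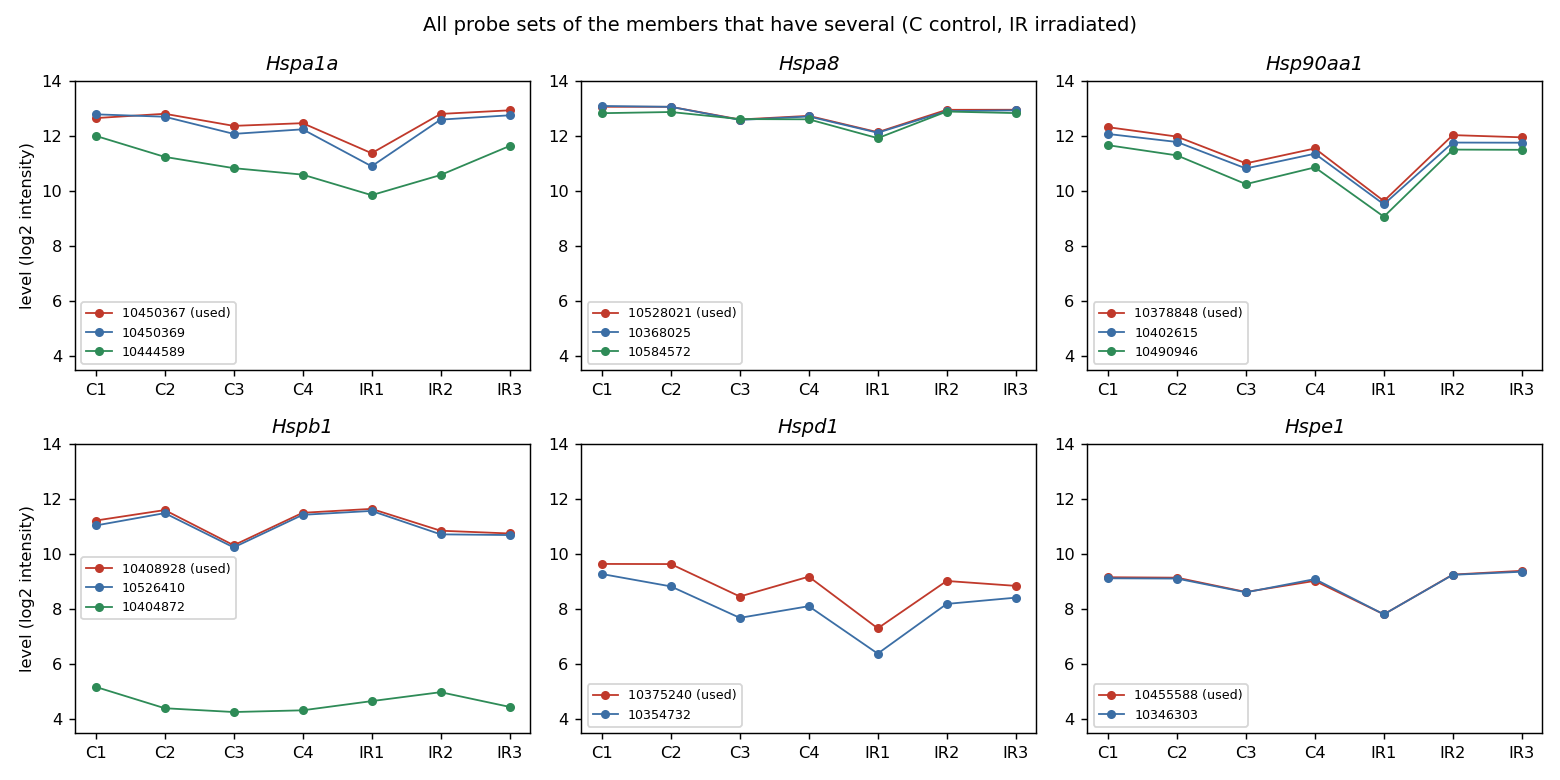
Level (log2 intensity, vertical axis) of every probe set of the 6 genes that have several, by array (C control, IR irradiated). Lines of a gene run nearly parallel in Hspa8, Hsp90aa1 and Hspe1, while 2 of the 3 Hspa1a probe sets have their highest value in control 1 and 1 Hspb1 probe set stays near 4.60 log2.

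Of the tested genes in 10 related lists (118 genes listed), none passed with all 7 arrays, where 1.68% of all tested genes did. Only Hspa13 passed without irradiated 1, where 4.63% of all tested genes did (1.58% higher and 3.06% lower). This single call is below that share. Hspa13, a microsomal HSP70 relative, was at 6.96, 7.03, 7.27 and 7.48 in controls and at 6.84, 8.10 and 8.26 in irradiated arrays. It rose by 0.99 log2 without irradiated 1 (SE 0.19, adjusted p = 0.0347, n = 4 and 2), in irradiated 2 and 3 but not in irradiated 1. With all arrays its log2 fold change was 0.55 (adjusted p = 0.413). It was 1 of 7 tested HSP70 relatives, whose median was 0.073 with all arrays and -0.054 without irradiated 1, against -0.050 and -0.047 over all tested genes. Hspa4, an HSP110-type exchange factor, had -0.41 and -0.16 (adjusted p = 0.508 and 0.839).

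Of 14 J-domain co-chaperones 0 passed, with medians of -0.11 and 0.059 in the 2 comparisons. Dnajb6, which blocks protein aggregation, was at 10.61, 10.47, 10.11 and 10.28 in controls and at 9.03, 10.71 and 10.76 in irradiated arrays. Dnaja1, another HSP40, was at 9.49, 9.23, 8.63 and 8.93 and at 8.17, 9.69 and 9.67. In both genes irradiated 2 and 3 lay above every control and irradiated 1 below, as in Hspe1. Irradiated 2 and 3 lay above every control in 4 of the 14 genes and below in 2. Of all tested genes, 10.2% had both above and 20.3% both below. Irradiated 1 was below every control in 40.4% of tested genes. The log2 fold changes of Dnajb6 and Dnaja1 without irradiated 1 were 0.37 (adjusted p = 0.332) and 0.61 (adjusted p = 0.236). Of 7 exchange factors and regulators of HSP70 0 passed, with medians of -0.053 and -0.10. Bag3, a stress-inducible exchange factor, was at 11.41, 10.11, 9.07 and 9.33 in controls and at 9.99, 9.58 and 10.84 in irradiated arrays (log2 fold change 0.16, adjusted p = 0.895, and 0.23, adjusted p = 0.895, without irradiated 1). Like Dnajb1 it was highest in control 1 and lowest in control 3 among the controls. Hspbp1, a nucleotide exchange factor, had -0.36 with all arrays and -0.42 without irradiated 1 (adjusted p = 0.283 and 0.194).

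HSP90 co-chaperones gave 0 of 14 calls, with medians of -0.071 and -0.025. In 3 of the 14, Ptges3 among them, irradiated 2 and 3 lay above every control, where 10.2% of tested genes did. In 0 of the 14 both lay below, where 20.3% did. Ptges3, the p23 protein that stabilises the closed HSP90 clamp, was at 8.52, 9.06, 9.17 and 9.38 in controls and at 8.60, 10.29 and 10.01 in irradiated arrays. Its log2 fold change of 1.12 without irradiated 1 (adjusted p = 0.0638) was the highest of that list and did not pass. Fkbp8, a membrane immunophilin, had -0.30 and -0.36 (adjusted p = 0.512 and 0.458). Among 7 other small heat-shock genes 0 passed, and the medians were 0.15 and 0.051. Hspb8 was at 8.70 in irradiated 1 and lower, up to 7.22, in the other 6 arrays, and Hspb6 had -0.44 and -0.72 (adjusted p = 0.402 and 0.0977). Hspb8 was thus like Hspb1 in having its highest value in irradiated 1.

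Mitochondrial chaperones and proteases (13 tested) had medians of -0.020 and 0.020, with 0 past the threshold. Irradiated 2 and 3 lay above every control in 1 of the 13, Hspa9, and below every control in 4. Of all tested genes, 10.2% and 20.3% did so. Hspa9, the mitochondrial HSP70 mortalin, was at 7.22, 7.94, 7.91 and 8.29 in controls and at 7.67, 8.54 and 8.78 in irradiated arrays (0.82 without irradiated 1, adjusted p = 0.165). Yme1l1, an inner membrane protease, had -0.22 and 0.14 (adjusted p = 0.708 and 0.788). The cytosolic chaperonin TRiC and prefoldin, 12 tested genes, had medians of -0.21 and -0.049 and again 0 calls. The TRiC subunit genes Cct2 and Cct4 had log2 fold changes of -0.34 and 0.16 without irradiated 1 (adjusted p = 0.357 and 0.660). Among regulators of the response 2 of 4 genes were bright enough to test. Hsbp1, a small protein that binds HSF1 trimers and dampens them, was at 10.59, 10.11, 9.99 and 9.90 in controls and at 9.61, 8.98 and 9.42 in irradiated arrays. All 3 irradiated arrays lay below all 4 controls, as in 15.3% of tested genes, and the log2 fold change was -0.81 (adjusted p = 0.161), and -0.95 (adjusted p = 0.0857) without irradiated 1. Hsf2, a second heat-shock factor, had -0.18 and -0.094 (adjusted p = 0.703 and 0.901).

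**Figure D5:**
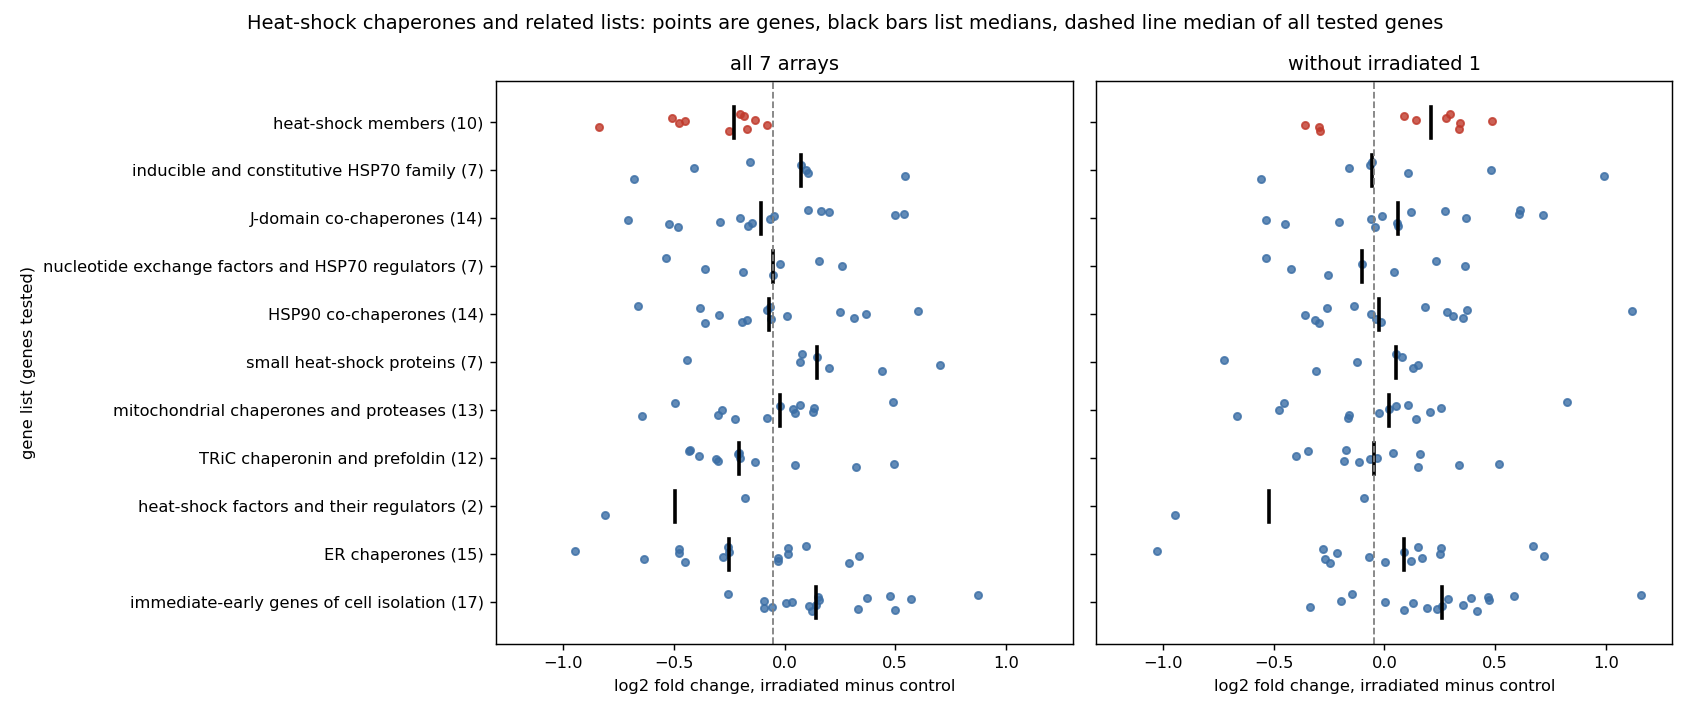
Log2 fold change, irradiated minus control (horizontal axis), of every tested gene in the 10 members and the 10 related lists, with all 7 arrays and without irradiated 1. Black bars are list medians and the dashed line is the median of all tested genes; the members' median goes from -0.23 to 0.21.

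Chaperones of the endoplasmic reticulum, many of which answer to the unfolded protein response, were also listed, among them the collagen chaperone Serpinh1, which is known as a heat-shock gene. Their 15 genes had medians of -0.25 with all arrays and 0.087 without irradiated 1, with 0 past the threshold, beside -0.23 and 0.21 for the 10 members. Hspa5 (BiP) was at 10.76, 11.61, 11.22 and 11.51 in controls and at 10.23, 12.09 and 11.79 in irradiated arrays (log2 fold change 0.096, adjusted p = 0.919, and 0.67, adjusted p = 0.188, without irradiated 1). Canx, the lectin chaperone calnexin, had 0.017 and 0.25 (adjusted p = 0.972 and 0.462). Irradiated 1 was the lowest array in 12 of these 15 genes, as in 8 of the 10 members. Control 3 was the lowest control in 2 of 15, unlike in the members; the difference between the lists was not tested. Immediate-early genes, which cell isolation is known to induce, had medians of 0.14 and 0.26 over 17 genes, and 0 passed. Without irradiated 1, 14 were positive and 3 negative (-0.34 to 1.16), where 43.6% of tested genes were positive. In 5 of the 17, irradiated 2 and 3 lay above every control, where 10.2% of tested genes did so. The 2 genes with the highest mean level were Dusp1 and Zfp36. Dusp1, a phosphatase, was at 12.32 to 12.78 in controls and 12.39 to 12.79 in irradiated arrays, and Zfp36, which destabilises cytokine RNA, at 11.83 to 12.67 and 11.98 to 12.49.

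Among the 3 tested genes outside the 10 whose profiles over the 7 arrays were nearest to that of Hspa1a were Stam2, an endosomal sorting gene, and Dnajb6. Their deviations from their own means differed from those of Hspa1a by 0.091 and 0.093 log2 per array on average. Both had their lowest value in irradiated 1, at 6.97 and 9.03. Hspa1a was also lowest there, so this follows largely from how the genes were picked and is not a separate result.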

How the data were processed

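The authors deposited 1 intensity for each probe set on each array. The submitters' processing notes name RMA (robust multi-array average) and no version. The array design, the annotation build and which arrays were normalised together: not given in the sources used here. Both deposited tables hold equal intensities (174454 of 174454 within 1e-09), on a linear scale. Log2 was taken, and per symbol the probe set with the highest mean over the 7 arrays was used. Symbols in the lowest 40% by mean level (below 6.07 log2) were not tested, leaving 13053, with all 10 members. Irradiated minus control was tested with limma 3.58.1 in R 4.3.3 (lmFit, eBayes, trend = TRUE), with Benjamini-Hochberg adjustment over these genes and a threshold of 0.05. The same was done without irradiated 1. The test was checked on simulated data. Members and lists were chosen with earlier results of these data known. Genes named from a list are its members past the threshold, or else the 2 with the highest mean level. Same-numbered control and irradiated arrays did not deviate together in every pair (correlations of 0.021, -0.055 and 0.17 over genes), so the numbers were not used as a block. Alternatives in scaling, filter, variance model, probe sets and arrays were run. The comparison of controls 2 and 3 with irradiated 2 and 3, the removal of a second array beside irradiated 1, and single probe sets were added after seeing the data. The genes most like Hspa1a were the 3 with the smallest mean absolute difference of log2 deviations over the 7 arrays, of which 1 is not reported here.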

Additional observations from a re-analysis of the deposited data

Results flagged for a closer look

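Among the controls of the 10 members and of 20 genes named from the related lists, 1 of 30 groups of 4 had an array far from the other 3. In Dusp1, control 1 was at 12.32 and the others at 12.71, 12.78 and 12.71, a gap of 0.838 of the whole range, past the limit of Dixon's test at 95%. About 1 in 20 such groups is marked when nothing is unusual. None of the 10 members was marked.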

How the results depend on the processing

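No member passed the threshold in any of 22 alternatives to the comparison of all arrays, some of which leave out irradiated 1, or in 20 alternatives to the comparison without it. In the latter no member's log2 fold change turned sign, but Hspa1a probe set 10444589, fitted on its own, gave -0.059 without irradiated 1. The lowest adjusted p of a member was 0.0567 (limma, Hsf1 with array weights, log2 fold change -0.43; 0.0567 to 0.943 over its alternatives). With all 7 arrays, signs depended on the arrays used. Leaving out each array in turn, log2 fold changes ran from -0.48 to 0.29 for Hspa1a, -0.32 to 0.089 for Hspa8, -0.92 to 0.28 for Hsp90aa1, -0.33 to 0.14 for Hsp90ab1, -0.99 to 0.48 for Hsph1, -0.96 to 0.34 for Dnajb1, -0.36 to 0.086 for Hspb1, -1.15 to -0.29 for Hspd1, -0.45 to 0.34 for Hspe1 and -0.33 to -0.13 for Hsf1. Array weights turned Hspa1a to 0.15, Hspa8 to 0.041, Hsp90aa1 to 0.24, Hsp90ab1 to 0.012, Hsph1 to 0.43, Dnajb1 to 0.23 and Hspe1 to 0.22. Controls 2 and 3 against irradiated 2 and 3, chosen after seeing the data, gave 0.28, 0.12, 0.50, 0.16, 0.68, 0.65 and 0.44 for the same genes, in that order. Quantile normalization turned Hspa1a to 0.054, Hsp90ab1 to 0.026, Hspb1 to 0.074 and Hspe1 to 0.020. Hspb1 also turned to 0.0069 with the mean of its probe sets and to 0.12 with a term for the earlier record or only controls with none. The cause was not tested.

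Over all genes, 15 were called higher and 204 lower with all arrays. Leaving out each array in turn gave 0 to 206 higher and 2 to 399 lower, the most without irradiated 1. Lower calls fell to 130 with no filter on dim genes. Array weights gave 831 higher and 2645 lower, and an adjusted p under 0.1 gave 46 and 593. The earlier-record term and the controls with no record each gave 0 higher and 1 lower, and controls 2 and 3 against irradiated 2 and 3 gave 1 and 0. The replicate block over arrays 1 to 3 gave 0 and 0 calls in limma and turned Hspb1 to 0.034; the numbers are only shared labels. Precision is limited by the number of arrays.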
